A study of Mus musculus with 4 samples.

Results

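Nuclear hormone receptors are transcription factors, many of which are switched by small fat-soluble ligands such as steroids, thyroid hormone, retinoic acid, fatty acids, oxysterols and bile acids. The 36 receptor genes followed here, of 32285 genes in the deposited tables, were taken by name. They are the nuclear receptors outside the body clock, the glucocorticoid receptor, PPAR alpha and gamma, and genes of body position, and no measured value entered that rule. All 36 names were found. The data were single-nucleus RNA counts from 4 mouse adipose libraries, and every animal was on a high-fat diet. The groups, as labelled, were brown adipose tissue (BAT) after surgery, BAT after a sham operation, beige adipose tissue (BeAT) after surgery and BeAT after a sham operation. The series title names the operation as bariatric. There was 1 library per group. Strain, sex, age, the time since the operation and the number of animals pooled into a library were not given in the sources used here. With 1 library per group nothing could be set against the spread between animals, so no p-value is given, and every interval (95%) covers counting error only.

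Several of these receptors bind DNA together with a retinoid X receptor, which serves as the common partner. Without ligand some hold corepressors on their target genes, and ligand exchanges these for coactivators. In adipose tissue, thyroid hormone receptors are known for thermogenesis and lipid turnover, liver X receptors for sterol and lipid handling, retinoic acid receptors for the fate of fat cell progenitors, and oestrogen receptor alpha for restraint of fat mass.

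The tables held 9946 barcodes for BAT surgery, 10445 for BAT sham, 5952 for BeAT surgery and 10417 for BeAT sham. After filters on depth and doublets 9159, 9791, 5328 and 9760 nuclei remained in those libraries, with medians of 5173, 3970, 2654 and 3049 UMIs. Any 2 libraries shared 36 to 73 barcodes, at most 0.706% of the smaller. Nuclei were clustered and given "-like" names from fixed marker genes. Values are UMIs of a gene per 1000000 UMIs (CPM) of all nuclei of a class in a library. The libraries stood apart in ways their labels do not give. Ucp1, which defines brown and beige fat cells, was at 0 CPM in adipocyte-like nuclei of both surgery libraries and at 0.0784 and 0.145 CPM in those of BAT sham and BeAT sham. Epithelial-like nuclei made up 61.9% of the BAT surgery library and occurred in no other. Gpx5, known from the epididymis, stood at 583 CPM in the adipocyte-like nuclei of that library and at 0 in those of the other 3. BeAT surgery held 1909 B cell-like and 1622 T or NK-like nuclei. Every surgery against sham ratio below rests on these libraries, and none can be recomputed without them.

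UMI totals over the 4 libraries ranged widely among the receptor genes. Of the 36, 31 had 50 UMIs or more and 5 had fewer. Nr0b1, which encodes DAX1, had 0 UMIs. Nr2e3 (a photoreceptor nuclear receptor) had 1, Nr2e1 (known from neural stem cells) 5, Nr5a1 (the steroidogenic factor of adrenal and gonad) 7, and Nr0b2 (small heterodimer partner) 7. These 5 genes are not described further. The class in which a gene stood highest was the same in all 4 libraries for several receptors. Nr1h4, the bile acid receptor FXR, was highest in progenitor-like nuclei, and Nr5a2, known from liver and pancreas, in endothelial-like nuclei. Thrb, thyroid hormone receptor beta, was highest in adipocyte-like nuclei, and Nr2c2, the orphan receptor TR4, in T or NK-like nuclei. Rora and Thra were both highest in progenitor-like nuclei. Some of these ranks lay within counting error, as the intervals of the highest and next class overlapped. This held for Thra in every library but BeAT surgery, for Nr2c2 in both BAT libraries and for Thrb in BAT sham.

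Adipocyte-like nuclei numbered 576 in BAT surgery, 4121 in BAT sham, 513 in BeAT surgery and 4889 in BeAT sham. A gene was called where the pair of libraries held at least 50 UMIs, the CPM ratio was at least 2-fold and its interval lay off 1. In BAT, 24 receptor genes had enough UMIs. Rxra and Rxrg rose and Esr2, Rorb and Nr1h2 fell after surgery, that is 2 higher and 3 lower. The same rule called 5.42% of all genes higher, 12.1% lower and 17.5% either way, so the 5 of 24 lie near the share of all genes. In BeAT, 22 had enough UMIs; Rxrg and Nr4a1 rose and none fell, against 4.86% of all genes higher, 15.2% lower and 20% either way. The median log2 ratio of the receptor genes was 0.02 in BAT, where that of all genes was -0.09. In BeAT it was 0.26 for the receptor genes and -0.08 for all genes. Between BAT sham and BeAT sham, none of 24 receptor genes was called, where the rule called 2.89% of all genes. This pair shares its libraries with the surgery pairs.

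Most adipocyte-like nuclei of the 4 libraries lay in different clusters, with 547 of BAT surgery in cluster 12, 1937 of BAT sham in cluster 22, 384 of BeAT surgery in cluster 23 and 2920 of BeAT sham in cluster 21. Summed markers of skeletal muscle in this class were 28.6 CPM in BAT surgery and 114 in BAT sham, then 31.6 in BeAT surgery and 73.6 in BeAT sham. Epithelial markers summed to 22.2 CPM in BAT surgery and 2.47 in BAT sham, then 0.667 in BeAT surgery and 0.290 in BeAT sham. Their part in the ratios was not tested.

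Among 24 receptor genes with 20 or more UMIs in each pair, 6 had an interval above 1 in both tissues and 4 an interval below 1 in both. Over all genes these shares were 16.5% and 16.7%. The 6 were Thrb, Rora, Rxra, Rxrg, Ppard and Nr2c2, and the 4 were Esr1, Thra, Rarg and Nr1h2. The 6 span 41.2 kb (Rxrg) to 734.5 kb (Rora) of the genome; of the 4, Esr1 spans 394 kb and the others 4.34 to 28.4 kb. With the trend of the ratios over gene span taken off, Thrb was at 0.938 in BAT and 0.996 in BeAT and Nr1h2 at 1.42 in BeAT, on the other side of 1. Rora, Rxra, Rxrg, Esr1 and Thra kept their side in both tissues, and Ppard, Nr2c2 and Rarg were not recomputed that way.

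**Figure D1:**
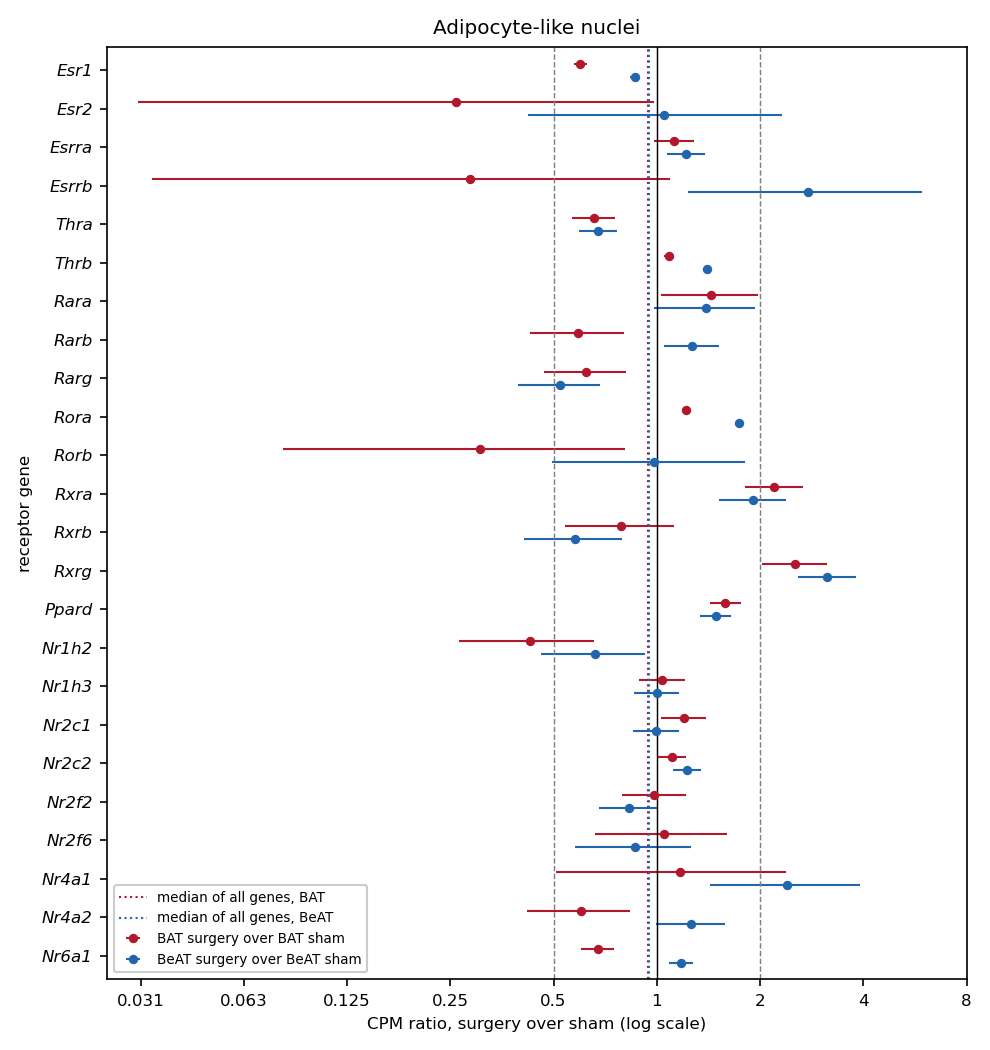
CPM ratio of surgery over sham in adipocyte-like nuclei for 24 receptor genes, on a log axis, with 95% counting intervals, for BAT (red) and BeAT (blue). Dashed lines mark 2-fold and dotted lines the median of all genes. Rxrg lies beyond 2-fold in both tissues, at 2.53 in BAT and 3.14 in BeAT.

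The retinoid X receptors, partners of several receptors that follow, include the only receptor gene called in adipocyte-like nuclei of both tissues. Rxrg, the gamma form (chr1:167598384-167639623, plus strand, mm10), rose in both tissues. It stood at 31.6 CPM (115 UMIs) in BAT surgery and 12.5 CPM (319 UMIs) in BAT sham, a ratio of 2.53 (2.02 to 3.14). In BeAT it stood at 40.02 CPM (180 UMIs) after surgery and 12.8 CPM (264 UMIs) after sham, a ratio of 3.14 (2.58 to 3.81). Both surgery values lay above both sham values, whose intervals overlapped each other. Within cluster 23, which holds adipocyte-like nuclei of 3 libraries, Rxrg was at 45.6 CPM in BeAT surgery against 16.8 in BeAT sham and 17.3 in BAT sham. Within cluster 22 it was at 18.7 CPM in BeAT surgery, against 8.59 in BeAT sham and 11.3 in BAT sham. Rxrg stayed past the rule under each alternative that could be run.

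Rxra, the alpha form (chr2:27676440-27762957, plus strand), was at 37.4 CPM (136 UMIs) in BAT surgery and 16.97 CPM (433 UMIs) in BAT sham, a ratio of 2.20 (1.80 to 2.67). After surgery BeAT held 25.1 CPM (113 UMIs), against 13.2 CPM (273 UMIs) after sham, and this ratio of 1.91 (1.52 to 2.38) did not reach 2-fold. With the trend of the ratios over gene span taken off, the BAT ratio was 1.87 and no longer past the rule. In cluster 23 Rxra was at 23.2 CPM in BeAT surgery and 19.04 in BeAT sham, closer than over the whole class. Rxrb, the beta form, had 9.61 CPM in BAT surgery and 12.2 in BAT sham, then 9.56 in BeAT surgery and 16.6 in BeAT sham. Neither Rxrb ratio reached 2-fold, and that in BAT, 0.788 (0.539 to 1.12), included 1.

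**Figure D2:**
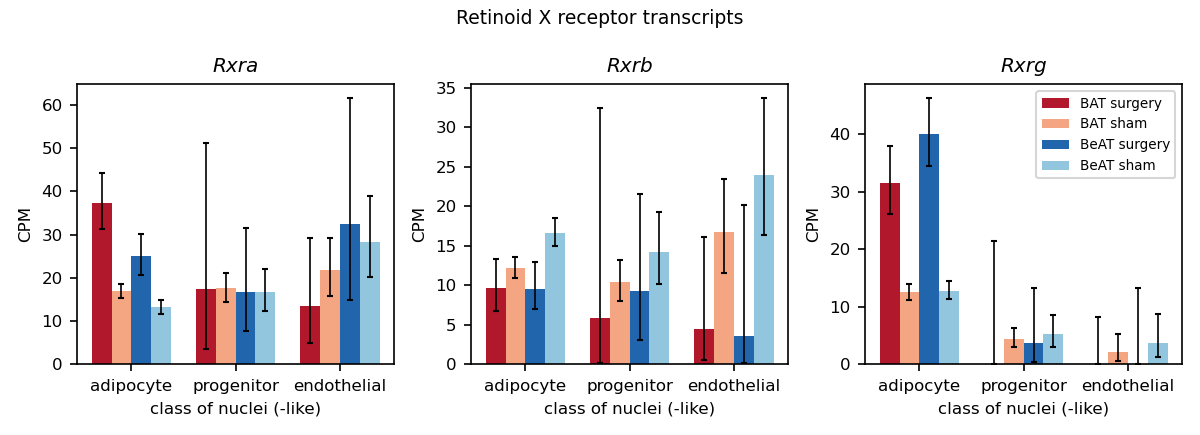
CPM of Rxra, Rxrb and Rxrg by library in adipocyte-like, progenitor-like and endothelial-like nuclei; bars start at 0 and error bars are 95% Poisson intervals. In adipocyte-like nuclei the Rxrg bars of both surgery libraries (31.6 and 40.02 CPM) stand above those of both sham libraries (12.5 and 12.8 CPM).

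The coregulators of the receptors were read in full in adipocyte-like nuclei. For these and the later lists in this class, the rule called 17.5% of all genes in BAT and 20% in BeAT. Between the shams it called 2.89%. All 12 listed coactivators had enough UMIs. In BAT 1 of them fell after surgery, Ppargc1a (the PGC-1 alpha coactivator of mitochondrial genes), with 52.2 CPM after surgery and 122 after sham. In BeAT 1 rose, Ncoa7, with 84.0 CPM after surgery and 38.5 after sham. The coactivator median log2 ratio was 0.35 in BAT and 0.41 in BeAT. Of 10 corepressors, Gps2, a subunit of the NCoR complex, fell in BAT, to 28.0 CPM against 56.1 after sham. Tbl1xr1, another subunit of that complex, rose in BeAT, to 181 CPM against 87.1 after sham. Their medians were 0.42 in BAT and 0.24 in BeAT, and between the sham libraries no coregulator was called. Nor was any listed gene of thyroid hormone, retinoid or vitamin D handling, or any listed liver X receptor or PPAR delta target, between the shams.

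Esr1, oestrogen receptor alpha (chr10:4611593-5005614, plus strand), was highest in adipocyte-like nuclei in 3 libraries and in progenitor-like nuclei in BeAT sham. In adipocyte-like nuclei it was at 623 CPM in BAT surgery and 1043 in BAT sham, a ratio of 0.598 (0.572 to 0.624). BeAT surgery had 794 CPM and BeAT sham 919, a ratio of 0.863 (0.833 to 0.895). Both intervals lay below 1 and neither difference reached 2-fold. Esr2, oestrogen receptor beta, fell in BAT, with 0.549 CPM from 2 UMIs after surgery against 2.12 CPM from 54 UMIs after sham, a ratio of 0.260 (0.0306 to 0.984). That call was lost with other size factors, at equal depth per nucleus and against the other sham library. In BeAT Esr2 had 1.78 CPM from 8 UMIs after surgery and 1.69 CPM from 35 UMIs after sham.

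In progenitor-like nuclei, 50 in BAT surgery and 1584 in BAT sham, Esr1 fell after surgery, with 210 CPM (36 UMIs) against 989 CPM (6490 UMIs) and a ratio of 0.212 (0.148 to 0.294). Progenitor-like nuclei numbered 134 in BeAT surgery and 900 in BeAT sham, and there Esr1 stood at 581 and 1053 CPM, short of 2-fold. Of 20 receptor genes with enough UMIs in the BAT pair, 3 were called (12.7% of all genes). In the BeAT pair 4 of 18 were called (23.2% of all genes), and between the shams 1 of 21 (3.5% of all genes). The BAT surgery nuclei of this class were nearly all, 46 of 50, in cluster 25, while 889 of the BAT sham nuclei were in cluster 17. Within cluster 25 Esr1 was at 221 CPM in BAT surgery and 534 CPM in BAT sham, and in cluster 17 at 1367 CPM in BAT sham. Wt1, a gene of mesothelium and visceral stroma, was at 198 CPM (34 UMIs) in progenitor-like nuclei of BAT surgery and 0 in those of BAT sham, then 22.1 CPM in those of BeAT surgery and 0 in those of BeAT sham. Its part in the progenitor ratios was not tested.

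Epithelial-like nuclei, present in BAT surgery alone, held most UMIs of Esr2, 1824 of 1969 over all libraries. Their Esr1 level was 434 CPM and their Esr2 level 46.5 CPM, and both varied among the 7 epithelial-like clusters. Esr1 ranged over 140 CPM in cluster 1 to 2823 CPM in cluster 13. Esr2 was at 117 CPM in cluster 15, 95.8 in cluster 1 and 1.89 in cluster 24. Pgr, the progesterone receptor, was under 1 CPM in adipocyte-like nuclei of each library and highest in Schwann-like nuclei. In that class, of 127 nuclei in BAT sham and 184 in BeAT sham, Pgr stood at 114 CPM (84 UMIs) in BAT sham and 20.1 CPM (8 UMIs) in BeAT sham, a ratio of 5.66 (2.74 to 13.5). Esr1 was higher there as well, at 544 CPM in BAT sham and 85.2 CPM in BeAT sham. In Schwann-like nuclei 4 of 9 receptor genes were called between the shams, where 28.3% of all genes were. Among them Nr6a1 was also higher in BAT sham, at 355 CPM against 155 in BeAT sham. Rorb was lower in BAT sham, at 41.9 CPM against 163 in BeAT sham. Of 9 genes listed for oestrogen and progesterone handling and targets, 2 had enough UMIs in adipocyte-like nuclei and none was called in any pair. The list's medians were 0.48 in BAT and 0.81 in BeAT, over 3 genes with 20 UMIs.

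The oestrogen-related receptors are orphan receptors that drive genes of mitochondrial respiration. Esrra, the alpha form, was at 68.4 CPM in BAT surgery and 60.8 in BAT sham, then 71.8 in BeAT surgery and 59.0 in BeAT sham, with ratios of 1.13 and 1.22. Esrrb, the beta form, had 2 UMIs in BAT surgery adipocyte-like nuclei, 49 in BAT sham, 12 in BeAT surgery and 20 in BeAT sham, and was not called. Among 9 listed targets 6 had enough UMIs in each surgery pair. None was called in BAT (median log2 ratio -0.23), and 2 fell in BeAT (median -0.68), where 15.2% of all genes were called lower. These were Cycs (cytochrome c), at 20.2 CPM after surgery against 56.1 after sham, and Ndufs7 (a complex I subunit), at 17.6 against 38.6. Between the shams 1 target was higher in BAT sham (Ckmt2) and 1 lower (Cycs), of 7.

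Thyroid hormone receptors were read with the 2 forms apart. In adipocyte-like nuclei Thrb was at 1085 CPM in BAT surgery and 1000 in BAT sham, then 1306 in BeAT surgery and 932 in BeAT sham. Thra was at 59.6 CPM in BAT surgery and 91.0 in BAT sham, then 61.6 in BeAT surgery and 91.3 in BeAT sham. The Thra intervals lay below 1 in both tissues, with ratios of 0.655 (0.567 to 0.753) in BAT and 0.675 (0.593 to 0.766) in BeAT, and the Thrb intervals above 1, a direction that was lost with the span trend taken off. None reached 2-fold. Thra overlaps Nr1d1, the clock receptor REV-ERB alpha, on the opposite strand, and whether counting used strand was not given in the sources used here. Nr1d1 was at 10.98 CPM in BAT surgery and 46.4 in BAT sham, then 21.8 in BeAT surgery and 51.6 in BeAT sham, so a part of the Thra difference that comes from shared reads was not tested. Of 10 genes of thyroid hormone handling and targets, 6 had enough UMIs. Me1, malic enzyme, rose in both tissues, at 1286 CPM in BAT surgery and 592 in BAT sham, then 1445 in BeAT surgery and 548 in BeAT sham. Hr, a corepressor induced by thyroid hormone, fell in BAT, to 7.41 CPM against 23.4 after sham, and the medians were -0.07 in BAT and 0.08 in BeAT.

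In macrophage-like nuclei, 923 in BAT surgery, 1062 in BAT sham, 167 in BeAT surgery and 539 in BeAT sham, Thra fell in BAT, with 45.0 CPM (140 UMIs) after surgery against 102 CPM (377 UMIs) after sham. Nr1d1 there was at 8.36 CPM in BAT surgery and 33.1 in BAT sham. Of these nuclei 881 of BAT surgery were in cluster 3 and 1048 of BAT sham in cluster 6. Within BeAT sham, Thra was at 36.9 CPM (16 UMIs) in cluster 3 and 99.9 CPM (113 UMIs) in cluster 6. In BeAT surgery it was at 48.1 CPM (18 UMIs) in cluster 3 and 62.9 CPM (19 UMIs) in cluster 6. The part of this split in the Thra difference was not tested. Thrb rose in BeAT, with 274 CPM (185 UMIs) after surgery against 130 CPM (203 UMIs) after sham, a ratio of 2.11 (1.72 to 2.59). That ratio was 0.999 when clustered at resolution 0.6, 1.08 with doublets kept, 1.26 against the other sham library and 1.58 with the span trend taken off. Skeletal muscle markers in this pair summed to 1076 CPM after surgery and 10.9 after sham, Thrb was at 938 CPM in skeletal muscle-like nuclei of BAT sham, and the part of these markers was not tested. The Thra ratio of 0.439 was 0.552 with doublets kept and 0.546 against the other sham library, neither past the rule. Of the receptor genes 2 of 17 were called in the BAT pair (12.9% of all genes) and 4 of 14 in the BeAT pair (22.1%). Between the shams 1 of 16 was called (4.63%), Nr1h3, lower in BAT sham.

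Rarb, retinoic acid receptor beta (chr14:16430839-16819156, minus strand), is a textbook target of its own ligand, through a pair of hexamers in its promoter. It is shown because it had the largest ratio of any receptor gene reported here, and because it was the only receptor gene whose promoter held this motif. RefSeq windows (GRCm38.p6) were found for 33 of the 36 genes, 48 windows in all, not for Nr5a1, Thra or Hnf4g. They were searched on both strands for 2 hexamers in the same direction with 5 bases between them. The hexamers allowed were AGGTCA, the related form AGTTCA, the related form GGGTCA and, as the last, the form GGTTCA. Of all 32851 windows, 29 (0.0883%) held such a repeat, and of the 48 only that of Rarb did. Among the genes of the lists named here, for which matches were not taken from every chromosome, it was also present at Cyp26a1. That gene encodes an enzyme that breaks down retinoic acid. The 250 bases before each start are printed 5′ to 3′ on the strand of the gene, with the repeat in capitals.
Rarb: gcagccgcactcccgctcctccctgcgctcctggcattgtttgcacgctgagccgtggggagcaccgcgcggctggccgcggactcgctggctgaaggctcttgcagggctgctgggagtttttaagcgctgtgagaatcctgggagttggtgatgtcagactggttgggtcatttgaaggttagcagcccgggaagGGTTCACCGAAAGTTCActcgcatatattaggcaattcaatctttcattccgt
Cyp26a1: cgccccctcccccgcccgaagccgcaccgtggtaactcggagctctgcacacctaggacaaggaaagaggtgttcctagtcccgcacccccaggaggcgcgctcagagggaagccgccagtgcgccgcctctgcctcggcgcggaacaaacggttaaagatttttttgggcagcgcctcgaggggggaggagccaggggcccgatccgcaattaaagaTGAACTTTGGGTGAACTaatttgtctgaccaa
The Rarb window is chr14:16575477-16575726 and its repeat lies 53 to 37 bases before the start. This start lies inside the span of the gene given above, not at its outermost 5′ end. Counts are per gene and were not assigned to a start. The Cyp26a1 window is chr19:37697558-37697807 on the plus strand, and its repeat lies 32 to 16 bases before the start and reads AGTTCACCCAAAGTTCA on the other strand. Repeats spaced by 1 to 4 bases, searched the same way, were in 54, 57, 13 and 22 of all windows and in none of the 48. A match describes letters of the window and says nothing of binding in these nuclei.

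Rarb rose after surgery in progenitor-like nuclei of both tissues. It was at 93.2 CPM (16 UMIs) in BAT surgery and 15.9 CPM (104 UMIs) in BAT sham, a ratio of 5.88 (3.24 to 10.01). After surgery BeAT had 82.9 CPM (45 UMIs), against 8.32 CPM (24 UMIs) after sham, a ratio of 9.96 (5.94 to 17.1). Both surgery values lay above both sham values. Within cluster 25 the order was the same. Rarb was at 88.4 CPM in BAT surgery against 23.9 in BAT sham, then 118 in BeAT surgery against 11.4 in BeAT sham. Cluster 25 held 46 of the 50 BAT surgery nuclei of this class, so its BAT surgery value repeats nearly the same nuclei. In cluster 17 Rarb was at 28.2 CPM in BeAT surgery and 7.16 in BeAT sham. Cyp26a1 had at most 3 UMIs in progenitor-like nuclei of any library. Top2b, which overlaps Rarb on the opposite strand, had ratios of 1.41 in BAT and 1.26 in BeAT in the same nuclei. Under the alternatives the BAT ratio was 3.02 with doublets kept, and the BeAT ratio 3.96 at equal depth, where it was not called. Against the other sham library the BAT pair held under 50 UMIs.

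Macrophage-like nuclei also gave large Rarb ratios, above those of progenitor-like nuclei in BAT only. These ratios rested on which nuclei were in the class. Rarb was at 45.0 CPM (140 UMIs) in BAT surgery and 3.26 CPM (12 UMIs) in BAT sham, then 75.4 CPM (51 UMIs) in BeAT surgery and 8.31 CPM (13 UMIs) in BeAT sham. The ratios were 13.8 (7.66 to 27.4) and 9.08 (4.87 to 18.2). When nuclei called doublets were kept and clustering was repeated, 562, 1044, 78 and 395 of these nuclei in BAT surgery, BAT sham, BeAT surgery and BeAT sham kept the macrophage name. In them Rarb was at 2.14 CPM (4 UMIs), 3.33 CPM (12 UMIs), 3.36 CPM (1 UMI) and 6.55 CPM (7 UMIs), with no excess after surgery. Another 360, 15, 87 and 143 nuclei fell into a cluster that met no name, and 1, 3, 2 and 1 nuclei lay elsewhere. In the unnamed cluster Rarb was at 110 CPM (136 UMIs) in BAT surgery, 0 in BAT sham, 138 CPM (50 UMIs) in BeAT surgery and 12.2 CPM (6 UMIs) in BeAT sham. This split was chosen after the values were seen. In BAT surgery F13a1, a marker of resident macrophages, was at 1160 CPM in the unnamed cluster and 8655 CPM in the nuclei that kept the name. Skeletal muscle markers summed to 1956 CPM in the unnamed cluster of BeAT surgery, and Saa3 was at 2397 CPM in that of BAT surgery and 0 in that of the other 3 libraries. In T or NK-like nuclei, as a class with little Rarb, 0 to 8 UMIs were read in each library, at most 3.08 CPM. The part of other cell types in the Rarb difference of this class was not tested.

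**Figure D3:**
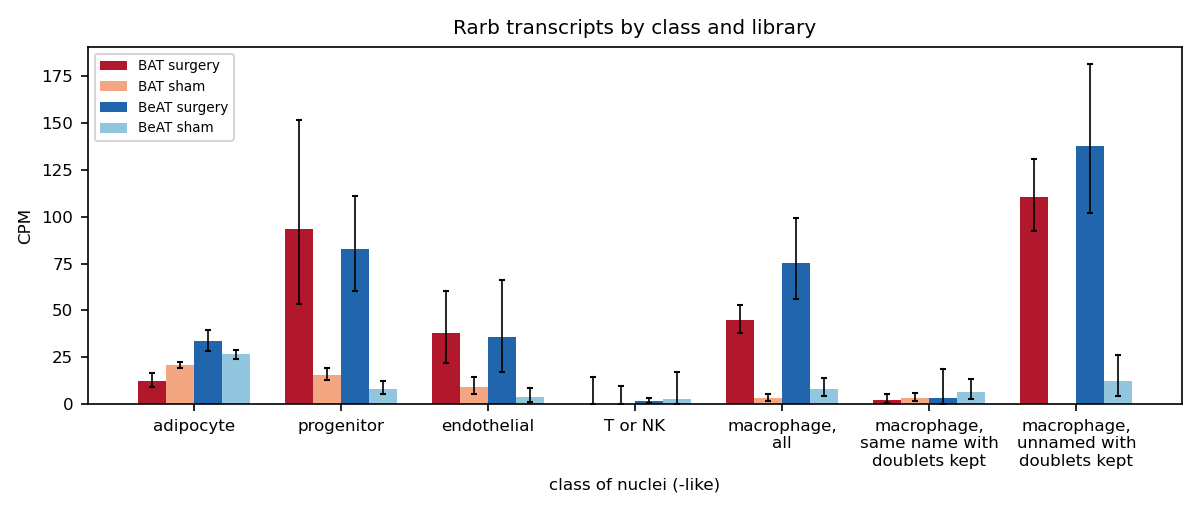
CPM of Rarb by library in each class, with 95% Poisson intervals and bars from 0; macrophage-like nuclei are shown as a whole and split by the clustering that kept doublets. In progenitor-like nuclei both surgery libraries (93.2 and 82.9 CPM) stand above both shams (15.9 and 8.32 CPM), and in nuclei that kept the macrophage name no library exceeds 6.55 CPM.

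Adipocyte-like nuclei showed no such difference. Rarb was at 12.4 CPM in BAT surgery and 20.9 in BAT sham, and at 33.6 in BeAT surgery and 26.6 in BeAT sham, so that the intervals lay below 1 in BAT and above 1 in BeAT. The BeAT ratio of 1.26 was 0.898 with the span trend taken off and 0.745 at equal depth. In endothelial-like nuclei it was at 37.9 CPM (17 UMIs) in BAT surgery and 9.11 CPM (18 UMIs) in BAT sham, then 36.1 CPM (10 UMIs) in BeAT surgery and 3.73 CPM (5 UMIs) in BeAT sham. These pairs held fewer than 50 UMIs and were not called. Rara, the alpha form, was at 12.9 CPM in BAT surgery and 8.98 in BAT sham, then 10.5 in BeAT surgery and 7.53 in BeAT sham in adipocyte-like nuclei. Rarg, the gamma form, was at 16.2 CPM in BAT surgery and 26.0 in BAT sham, then 13.6 in BeAT surgery and 26.0 in BeAT sham, with both intervals below 1. Neither was called.

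Of 14 genes of retinoid handling, 5 had enough UMIs in adipocyte-like nuclei, with medians of 0.21 in BAT and 0.14 in BeAT. Rbp4, which carries retinol in blood, fell in both tissues. It was at 64.8 CPM in BAT surgery and 149 in BAT sham, then 43.4 in BeAT surgery and 213 in BeAT sham. In progenitor-like nuclei Aldh1a3, an enzyme that makes retinoic acid, rose in both tissues, with 175 CPM (30 UMIs) in BAT surgery and 81.5 CPM (535 UMIs) in BAT sham, then 64.5 CPM (35 UMIs) in BeAT surgery and 30.5 CPM (88 UMIs) in BeAT sham. BAT sham stood 2.67-fold above BeAT sham in the same gene, a gap larger than either difference after surgery. Rdh10, which oxidises retinol, rose in BeAT, to 35.0 CPM against 15.3 after sham.

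The ROR receptors bind DNA alone. Rora (chr9:68653786-69388246, plus strand) had the most UMIs of the receptor genes in all, 175840, on a gene of 734.5 kb. In adipocyte-like nuclei it was at 1963 CPM in BAT surgery and 1613 in BAT sham, then 2436 in BeAT surgery and 1401 in BeAT sham, ratios of 1.22 (1.19 to 1.25) and 1.74 (1.70 to 1.78) that did not reach 2-fold. Rorb, the beta form (chr19:18930605-19111196, minus strand), fell in BAT adipocyte-like nuclei, where it had 1.10 CPM (4 UMIs) after surgery and 3.61 CPM (92 UMIs) after sham. That call was lost at equal depth and against the other sham library.

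In progenitor-like nuclei Rorb went in opposite directions in the 2 tissues. It fell in BAT, to 69.9 CPM (12 UMIs) after surgery against 223 CPM (1463 UMIs) after sham, and rose in BeAT, to 306 CPM (166 UMIs) after surgery against 92.6 CPM (267 UMIs) after sham. The ratios were 0.314 (0.162 to 0.549) and 3.30 (2.71 to 4.03), and that of BAT sham over BeAT sham was 2.41 (2.11 to 2.75). The difference between the 2 ratios was not tested. Within cluster 25 Rorb was at 75.8 CPM in BAT surgery and 344 in BAT sham, then 422 in BeAT surgery and 165 in BeAT sham. Set against the sham of the other tissue, the ratios were 0.755 for BAT surgery and 1.37 for BeAT surgery, both inside 2-fold.

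The receptors for fatty acids, vitamin D, oxysterols and bile acids came next. Ppard, PPAR delta, which drives fatty acid oxidation, was at 120 CPM in BAT surgery and 75.6 in BAT sham, then 107 in BeAT surgery and 71.9 in BeAT sham. The ratios of 1.58 (1.43 to 1.76) and 1.49 (1.34 to 1.65) had intervals above 1 and stayed under 2-fold. All 7 listed targets had enough UMIs in adipocyte-like nuclei. In BAT Angptl4, an inhibitor of lipoprotein lipase, was among those that fell, to 33.8 CPM after surgery against 74.5 after sham. In BeAT Acadvl, an enzyme of fatty acid oxidation, was among those that fell, to 13.1 CPM after surgery against 28.9 after sham, while Pdk4, a brake on glucose oxidation, rose there to 166 CPM after surgery against 39.2 after sham. The medians of these targets were -0.67 in BAT and -0.01 in BeAT. Vdr, the vitamin D receptor, had 7 UMIs in adipocyte-like nuclei of BAT surgery, 6 in BAT sham, 1 in BeAT surgery and 1 in BeAT sham. Cubn was the only 1 of 6 genes of vitamin D handling with enough UMIs in the surgery pairs and fell in both. These calls rest on few UMIs, with 4 after surgery against 90 after sham in BAT, a ratio of 0.311 (0.0830 to 0.825). In BeAT there were 3 after surgery against 72 after sham, a ratio of 0.192 (0.0387 to 0.583).

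Nr1h2, liver X receptor beta (chr7:44549616-44553951, minus strand), fell in BAT, with 6.04 CPM (22 UMIs) after surgery against 14.2 CPM (361 UMIs) after sham, a ratio of 0.427 (0.264 to 0.657). After surgery BeAT had 8.67 CPM (39 UMIs), against 13.1 CPM (272 UMIs) after sham, a ratio of 0.660 (0.459 to 0.926) that was 1.42 with the span trend taken off. The BAT call was lost at equal depth, where the ratio was 0.575, and with that trend taken off, where it was 0.614. Nr1h3, liver X receptor alpha, did not differ by more than counting error after surgery in adipocyte-like nuclei. It was at 54.1 CPM in BAT surgery and 52.1 in BAT sham, then 48.0 in BeAT surgery and 48.0 in BeAT sham, with ratios of 1.04 (0.889 to 1.21) and 1 (0.860 to 1.16). Macrophage-like nuclei had 10.3 CPM (32 UMIs) of Nr1h3 in BAT surgery and 6.79 (25 UMIs) in BAT sham, then 121 (82 UMIs) in BeAT surgery and 22.4 (35 UMIs) in BeAT sham. The BeAT ratio of 5.42 (3.61 to 8.30) was called, and with doublets kept it was 1.22 and not called. Rxra in the same nuclei of BeAT was at 96.1 CPM (65 UMIs) after surgery and 33.2 CPM (52 UMIs) after sham, and with doublets kept its ratio was 0.994. The skeletal muscle markers given above for this BeAT pair apply here too, and their part was not tested.

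All 9 listed liver X receptor targets, Nr1h3 itself among them, had enough UMIs in adipocyte-like nuclei, and the medians were 0.05 in BAT and 0.32 in BeAT. Smpdl3a, a phosphodiesterase, fell in both tissues, to 4.94 CPM against 11.1 after sham in BAT and to 4.67 against 17.1 in BeAT. Pltp, the phospholipid transfer protein, fell in BAT, to 14.6 CPM against 40.4 after sham. Apoe, the lipid carrier, fell in BeAT, to 61.6 CPM against 450 after sham. In endothelial-like nuclei of BAT all 9 had enough UMIs, and 2 rose and 4 fell, where the rule called 22.5% of all genes. The cholesterol exporters Abca1 and Abcg1 rose, Abca1 to 610 CPM against 256 after sham and Abcg1 to 109 against 53.1. Smpdl3a fell to 11.1 CPM against 31.9 after sham, Apoe to 156 against 975 and Pltp to 48.99 against 182. Nr1h3, the other one that fell, was at 6.68 CPM (3 UMIs) against 23.8 CPM (47 UMIs) after sham. At equal depth its ratio was 1.10, on the other side of 1, and the call was also lost with doublets kept, at resolution 0.6, with the span trend taken off and against the other sham library. Adipoq, the fat cell hormone, was at 24.5 CPM after surgery and 474 after sham in the same nuclei.

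Nr1h4, the bile acid receptor FXR (chr10:89454234-89533585, minus strand), was a gene of stromal nuclei here. Its level in progenitor-like nuclei was 186 CPM (32 UMIs) in BAT surgery and 115 (751 UMIs) in BAT sham, then 192 (104 UMIs) in BeAT surgery and 72.8 (210 UMIs) in BeAT sham. In no other named class did it exceed 7.39 CPM. The BeAT ratio of 2.63 (2.06 to 3.35) was called, and against BAT sham it was 1.67, inside 2-fold. In cluster 25 Nr1h4 stood at 202 CPM in BAT surgery, 173 in BAT sham, 291 in BeAT surgery and 127 in BeAT sham. In cluster 17 it was lower in each library with nuclei enough, at 66.1 CPM in BAT sham, 37.6 in BeAT surgery and 52.5 in BeAT sham. In BeAT the share of cluster 25 differed, with 80 of 134 progenitor-like nuclei after surgery and 221 of 900 after sham.

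**Figure D4:**
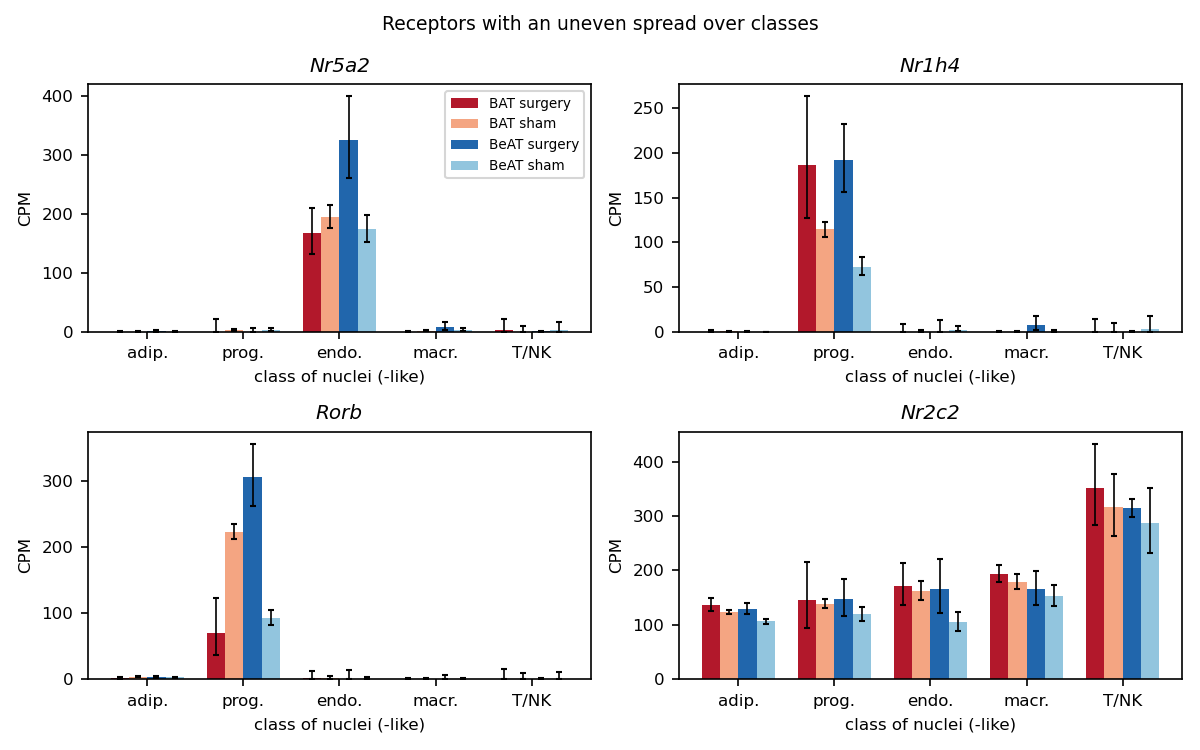
CPM of Nr5a2, Nr1h4, Rorb and Nr2c2 by library in 5 classes, with 95% Poisson intervals and bars from 0. Nr5a2 stands in endothelial-like nuclei (167 to 325 CPM), Nr1h4 and Rorb in progenitor-like nuclei, and Nr2c2 in every class, highest in T or NK-like nuclei (287 to 352 CPM).

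The NR4A receptors are immediate early genes, induced within minutes by stimuli such as adrenergic signals, and act without a known ligand. Nr4a1 rose in BeAT adipocyte-like nuclei, with 5.78 CPM (26 UMIs) after surgery against 2.42 CPM (50 UMIs) after sham, a ratio of 2.39 (1.43 to 3.92). It was not called at equal depth (ratio 2.88) or within a shared cluster (6.15), each with under 50 UMIs. In BAT it was at 2.47 CPM (9 UMIs) after surgery and 2.12 CPM (54 UMIs) after sham. Nr4a2 was at 10.4 CPM in BAT surgery and 17.4 in BAT sham, then 21.6 in BeAT surgery and 17.1 in BeAT sham, and was not called. Nr4a3 had 2 to 4 UMIs in adipocyte-like nuclei of each library. Of 11 companion early genes and inducers, all with enough UMIs, 5 fell in BAT after surgery (12.1% of all genes). In BeAT 1 rose (4.86% of all genes), and the medians were -0.79 in BAT and 0.49 in BeAT. Jun fell to 23.9 CPM in BAT surgery against 137.5 in BAT sham, and Junb to 6.87 against 50.01. Fosb fell in BAT and rose in BeAT, to 58.0 CPM after surgery against 10.4 after sham. Between the shams 6 of the 11 were lower in BAT sham, with a median of -1.02, where 2.89% of all genes were called either way.

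NR4A genes were called outside the adipocyte-like class too. Cluster 8, led by Wdfy4, Clec9a, Ccr2 and Flt3 and left without a name, held 85 nuclei of BAT surgery, 301 of BAT sham, 179 of BeAT surgery and 236 of BeAT sham. Nr4a1 rose there in both tissues, at 119 CPM (33 UMIs) in BAT surgery and 36.1 (42 UMIs) in BAT sham, then 91.3 (55 UMIs) in BeAT surgery and 36.9 (31 UMIs) in BeAT sham. Nr4a3 rose in BeAT, to 81.4 CPM (49 UMIs) against 13.1 (11 UMIs) after sham. Esr1, Thra, Thrb and Rora fell in this cluster in both tissues, Rora to 57.5 CPM against 461 after sham in BAT and to 51.5 against 422 in BeAT. In cluster 8, 5 of 11 receptor genes were called in BAT (26.3% of all genes) and 6 of 13 in BeAT (36.2%). Dendritic-like nuclei, 256 in BeAT surgery and too few elsewhere, had Nr4a3 at 83.8 CPM (99 UMIs). Skeletal muscle-like nuclei, 370 in BAT sham, had Nr4a1 at 159 CPM (160 UMIs).

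The NR2 group holds orphan receptors, for which no natural ligand is settled. Nr2c2, the member of this group with the most UMIs, was at 352 CPM (89 UMIs) in T or NK-like nuclei of BAT surgery, 316 (123 UMIs) in BAT sham, 314 (1433 UMIs) in BeAT surgery and 287 (93 UMIs) in BeAT sham. In adipocyte-like nuclei it was at 137 CPM in BAT surgery and 124 in BAT sham, then 130 in BeAT surgery and 106 in BeAT sham. Nr2c1, its relative TR2, rose in T or NK-like nuclei of BeAT, with 41.7 CPM (190 UMIs) after surgery against 18.5 CPM from 6 UMIs after sham, a ratio of 2.26 (1.02 to 6.22). That call was lost with other size factors, with doublets kept (1.92), at equal depth, with the span trend taken off and at resolution 0.6. It was the only 1 of 15 receptor genes called in that pair, where 17.4% of all genes were, and in BAT none of 3 was called (7.32% of all genes). Cluster 16, led by Rgs5, Agtr1a and Pdgfrb, had Nr2c2 at 164 CPM in BAT sham and 74.2 CPM in BeAT sham, 1 call of 18 (7.04% of all genes).

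Nr2f2, COUP-TFII, a regulator of venous and lymphatic identity, was at 136 CPM (61 UMIs) in endothelial-like nuclei of BAT surgery and 69.8 (138 UMIs) in BAT sham, then 101 (28 UMIs) in BeAT surgery and 69.5 (93 UMIs) in BeAT sham. Lymphatic endothelial-like nuclei, 79 in BeAT surgery, had 324 CPM (85 UMIs). In cluster 4, led by C7, Col6a5 and Wt1 and without a name, Nr2f2 fell to 167 CPM in BAT surgery against 428 in BAT sham. Esr1 and Rarg fell in that cluster too, making 3 of 16 called (14.4% of all genes). Wt1 in cluster 4 was at 343 CPM in BAT surgery and 0 in BAT sham. Nr2f6 fell in progenitor-like nuclei of BeAT, with 3.69 CPM from 2 UMIs after surgery against 19.1 CPM from 55 UMIs after sham, a call that was lost at equal depth, in a shared cluster, with the span trend taken off and against the other sham library. Hnf4a and Hnf4g, known from liver, kidney and gut, were under 1 CPM in adipocyte-like nuclei, and stood at 4.004 and 13.3 CPM in epithelial-like nuclei of BAT surgery. Hnf4a was at 82.1 CPM in epithelial-like cluster 13 and Hnf4g at 41.6 CPM in cluster 15.

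Nr5a2, liver receptor homolog 1 (chr1:136842571-136960448, minus strand), was read in endothelial-like nuclei of all 4 libraries, 159, 748, 108 and 557 nuclei in BAT surgery, BAT sham, BeAT surgery and BeAT sham. It was at 167 CPM (75 UMIs) in BAT surgery and 195 (385 UMIs) in BAT sham, then 325 (90 UMIs) in BeAT surgery and 174 (233 UMIs) in BeAT sham. Lymphatic endothelial-like nuclei of BeAT surgery had 183 CPM (48 UMIs). In each of the other named classes it was at or under 7.39 CPM. Cluster 11, unnamed and led by Hba-a1, Gpihbp1, Rbp7 and Rgs5, held 80 nuclei of BeAT surgery and 1872 of BeAT sham. Nr5a2 fell in it, to 9.98 CPM (2 UMIs) against 38.1 (134 UMIs) after sham, and Esrra and Rara rose, so that 3 of 18 receptor genes were called (15.3% of all genes).

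Nr6a1, the germ cell nuclear factor (chr2:38723370-38927688, minus strand), rose in endothelial-like nuclei of both tissues. It was at 223 CPM (100 UMIs) in BAT surgery and 95.6 (189 UMIs) in BAT sham, then 170 (47 UMIs) in BeAT surgery and 64.2 (86 UMIs) in BeAT sham, ratios of 2.33 (1.81 to 2.98) and 2.64 (1.81 to 3.81). Both surgery values lay above both sham values. With the trend over gene span taken off, the ratios were 1.76 and 1.55, and neither was past the rule. With doublets kept they were 1.98 and 1.24, also short of it. Ppard rose in the BeAT pair as well, with 90.2 CPM (25 UMIs) after surgery against 38.1 (51 UMIs) after sham, and its ratio was 1.66 with the span trend taken off. Of the receptor genes 2 of 14 were called in endothelial-like nuclei of BAT (22.5% of all genes), 2 of 11 in BeAT (32%) and 0 of 18 between the shams (4.21%). Erythroid markers in these nuclei summed to 323 CPM in BAT surgery and 1208 in BAT sham, then 249 in BeAT surgery and 5150 in BeAT sham, and their part was not tested. In adipocyte-like nuclei Nr6a1 was at 98.0 CPM in BAT surgery and 146 in BAT sham, then 163 in BeAT surgery and 138 in BeAT sham, with intervals below 1 in BAT and above 1 in BeAT. Epithelial-like nuclei of BAT surgery had 489 CPM, in a range of 337 to 627 CPM among their clusters.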

How the data were processed

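The deposited tables hold whole-number UMI counts per gene and barcode, 1 matrix per library. Per the submitters' processing notes, mm10 and Seurat 4.4.0 were used; the sources used here name no aligner or counter and do not say whether strand was used. Per the labels the molecule was nuclear RNA, though the protocol describes dissociated cells.

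Nuclei with at least 500 UMIs, 300 genes and under 10% mitochondrial UMIs were kept. Doublets were scored by simulation, with the highest 6% removed in both sham libraries, where no automatic threshold worked. The remaining nuclei were clustered together without integration (scanpy 1.11.5, leidenalg 0.10.2; 2000 variable genes, 30 components, 15 neighbours, resolution 1.0). Counts were summed per class and library. Ratios carry exact conditional binomial intervals and levels exact Poisson ones (scipy 1.17.1). The calculation was tested on simulated data. Genes named are all called receptor genes, at most 6 per further class, the gene with most UMIs per role group, and at most 4 called genes per list. Clusters 4, 7, 8, 11, 16 and 29 met no name. Gene positions are from GENCODE (GRCm38, the build mm10 names). The receptor genes and the 10 lists (97 genes) were chosen with earlier results of these data known. Alternatives changed the UMI minimum, fold, size factors, depth per nucleus, doublets, clustering resolution, sham library, shared clusters, span trend and leaking genes. Values of some list genes are not reported here.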

Additional observations from a re-analysis of the deposited data

Results flagged for a closer look

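Rorb in progenitor-like nuclei was singled out because it moved in opposite directions after surgery in the 2 tissues. Its CPM ratio of surgery over sham was 0.314 in BAT and 3.30 in BeAT. The difference between the tissues was not tested, since each group is 1 library.

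Values in cluster 29 stand outside the comparisons of the report, because its 162 nuclei all came from BeAT surgery and met no name. The leading genes of the cluster are Csmd1, Pcdh15, Adgrb3 and Nxph1. Rora, the retinoic acid receptor-related orphan receptor alpha, was at 4840 CPM (4388 UMIs) in it. Vdr, the vitamin D receptor, was at 25.4 CPM (23 UMIs), against 0.0483 to 1.92 CPM in adipocyte-like nuclei of the 4 libraries. Both were noted because their lower counting bounds in cluster 29 lay above the upper bounds of all named classes read in BeAT surgery. Of those classes progenitor-like nuclei had the most Rora, at 3398 CPM (1844 UMIs). The cluster has no counterpart in the sham libraries.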

How the results depend on the processing

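No paired analysis was possible because each group is 1 library, and for the same reason no library could be left out. In adipocyte-like nuclei 5 of 24 receptor genes were called in BAT, 2 of 22 in BeAT and 0 of 24 between the shams (by the same rule, with no test to give an unadjusted p). A fold of 1.5 gave 11, 7 and 1, where it called 31.7%, 36.9% and 11.3% of all genes. Thinning nuclei to 1000 UMIs gave 2 of 18 in BAT (14.5% of all genes) and 1 of 19 in BeAT (15.6%), and moved the BeAT median log2 ratio of 0.26 to -0.026. Between the shams, no UMI minimum gave 1 (3.72% of all genes) and doublets kept 1 (2.81%). Called list genes numbered 15 in BAT, 13 in BeAT and 8 between the shams. They come from 97 listed genes, not all with enough UMIs. The same rule called 17.5%, 20% and 2.89% of all genes with enough UMIs in those pairs. A fold of 1.5 gave 28, 28 and 14 list genes, against 31.7%, 36.9% and 11.3% of all genes. In BAT the span trend taken off gave 8 and the other sham library 24, and in BeAT a shared cluster gave 8. The shares of all genes under these last settings are not given here. Summed over the pairs of progenitor-, endothelial-, macrophage- and T or NK-like nuclei, 20 calls of 170 (13.6% of all genes) became 39 with no minimum (9.6%), 47 at 1.5-fold (24.9%) and 13 of 85 thinned (11.5%). A highest class was named for 106 pairs of gene and library, and when thinned 61 of 86 kept it. Of 708 single-gene values under alternatives, 553 lay within the counting interval of the reported value, 150 moved beyond it and 5 called values reversed. These were Nr1h3 in endothelial-like nuclei of BAT when thinned (1.10), Rarb in macrophage-like nuclei with doublets kept (0.786 in BAT, 0.237 in BeAT), and in BeAT macrophage-like nuclei Rxra with doublets kept (0.994) and Thrb at resolution 0.6 (0.999). The cause was not tested. Shared clusters gave no value for BAT adipocyte-, progenitor- and macrophage-like pairs, with under 50 nuclei. Counts under 50 UMIs per pair, 1 library per group and surgery libraries rich in other cells limit these data.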

Other observations

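Other receptor genes were also read in cluster 29 of BeAT surgery. Nr2f2 was at 169 CPM, Rarb at 89.3 CPM and Nr1h4 at 61.8 CPM there, the last a level that no named class but the progenitor-like one reached. Cluster 7, 824 nuclei of BAT surgery led by Defb15, Spink8 and Lcn5, had Nr2f2 at 153 CPM, Nr6a1 at 178 CPM and Esr2 at 9.10 CPM.

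Genes of steroid hormone handling and thyroid hormone response were called in progenitor-like nuclei. Sult1e1, which sulphates and so inactivates oestrogens, rose in both tissues, at 338 CPM (58 UMIs) in BAT surgery and 51.5 CPM in BAT sham, then 107 CPM (58 UMIs) in BeAT surgery and 44.4 CPM in BeAT sham. Thrsp, a lipogenic target of thyroid hormone, fell in both, to 11.7 CPM (2 UMIs) in BAT surgery against 95.9 in BAT sham and to 62.7 in BeAT surgery against 136 in BeAT sham. Adipoq, a fat cell gene, was at 11.7 CPM in BAT surgery and 203 in BAT sham, then 36.9 in BeAT surgery and 284 in BeAT sham in these progenitor-like nuclei, and its part in the Thrsp difference was not tested.

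In macrophage-like nuclei of BeAT, Ppargc1b, a coactivator, was at 149 CPM after surgery and 55.0 after sham. Apoe was at 560 CPM after surgery and 3033 after sham, and Pltp at 188 and 594 CPM. These rest on the same nuclei as Rarb in that class.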
